A study of Mus musculus with 27 samples.

Results

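Messenger RNA of 32 genes of the complement system was compared across hepatocytes, the main cell type of the liver, of 9 inbred mouse strains. The genes were the complement components, proteases, regulators and receptors on a list of symbols, each matched to an Ensembl identifier through the GENCODE M21 annotation. All 32 were found among the 43346 genes of the count table. Each strain had 3 libraries, labelled as biological replicates, from livers of females aged 12 weeks, which gave 27 libraries. Among the classical laboratory strains were A/J, C57BL/6J (the strain of the reference genome), 129S1/SvImJ, NOD/ShiLtJ, DBA/2J and NZO/HlLtJ; PWK/PhJ, CAST/EiJ and WSB/EiJ are inbred lines derived from wild mice. No treatment or engineered allele is named for any group. The study also covered chromatin and DNA methylation, and only the RNA is described here.

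Complement is a set of blood proteins, most of them secreted by hepatocytes, that tag and lyse microbes. A classical route opened by the C1 proteases and a lectin route opened by mannose-binding lectins with MASP proteases both cut C4 and C2. Together with an alternative route run by factor B, factor D and properdin, they activate C3 and then C5, and C5 to C9 build a pore in the target membrane while soluble and membrane-bound regulators protect host cells. The C5 gene of the mouse is called Hc, for hemolytic complement, and A/J, DBA/2J and NOD/ShiLtJ are textbook C5-deficient strains that carry a frameshifting deletion in it.

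Summed counts ran from 17015956 to 35078511 per library, and levels are given as CPM, the usual depth-scaled count, here over the library size after TMM scaling. All 10 hepatocyte markers examined were expressed, and 7 of the 10 differed among strains. Strain means of Alb (albumin) alone lay between 86600 (CAST/EiJ) and 229400 CPM (A/J). Markers of other liver cells were present at low levels that differed between strains. The summed level of 10 Kupffer cell and macrophage markers, all 10 of which differed among strains, lay between 29.5 and 347 CPM per library, and that of 10 endothelial markers, also all 10 differing, between 63.6 and 811 CPM. The PWK/PhJ replicate 1 library had the highest sum of both lists. Of the other lists, 7 of 10 stellate cell genes differed, and of those with enough counts to test, 2 of 2 cholangiocyte genes, 0 of 1 lymphocyte genes (Cd79b, adjusted p 0.16), 1 of 2 neutrophil genes and 2 of 2 adipocyte genes. The lymphocyte list summed to at most 2.09 CPM in any library, and Lep had no count in any.

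Of the 32 genes, 31 had enough counts to be tested, and 30 differed among the 9 strains at an adjusted p below 0.05 (edgeR quasi-likelihood F test, Benjamini-Hochberg over the 14482 genes tested). Strain differences were common in these libraries, since 74.2% of all genes tested passed the same threshold. Among the 1072 genes that averaged at least 100 CPM, 92.4% did, and all 20 complement genes at that level did. The mean of the highest strain divided by that of the lowest had a median of 3.63 over the 31 complement genes and 2.27 over all genes tested; at 100 CPM or more the medians were 2.55 and 2.2. The complement genes not past the threshold were C5ar1, the receptor for the C5a fragment, with an adjusted p of 0.086 in edgeR and 0.0314 in DESeq2, and Cfd (factor D), which was at 0 in 25 of 27 libraries, had at most 1 count in any, and was not tested. Factor D is known mainly as a product of fat cells.

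Per kilobase of the longest annotated transcript, C3 was the most abundant, at a mean over libraries of 3095 CPM per kb. It was followed by Vtn at 1834 and Clu at 793 CPM per kb, both of which keep the terminal complex from inserting into membranes. Cfb (factor B) had 678, Serping1 (C1 inhibitor) 595 and Mbl2 516 CPM per kb. Hc, at 132 CPM per kb, lay near C4bp at 135, C1s1 at 136 and C1ra at 133. The membrane regulator Cd46 and the receptors C3ar1 and C5ar1 were at 0.0466, 0.139 and 0.124 CPM per kb. On this scale, then, the genes spanned from a major liver transcript to a handful of counts per library.

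**Figure D1:**
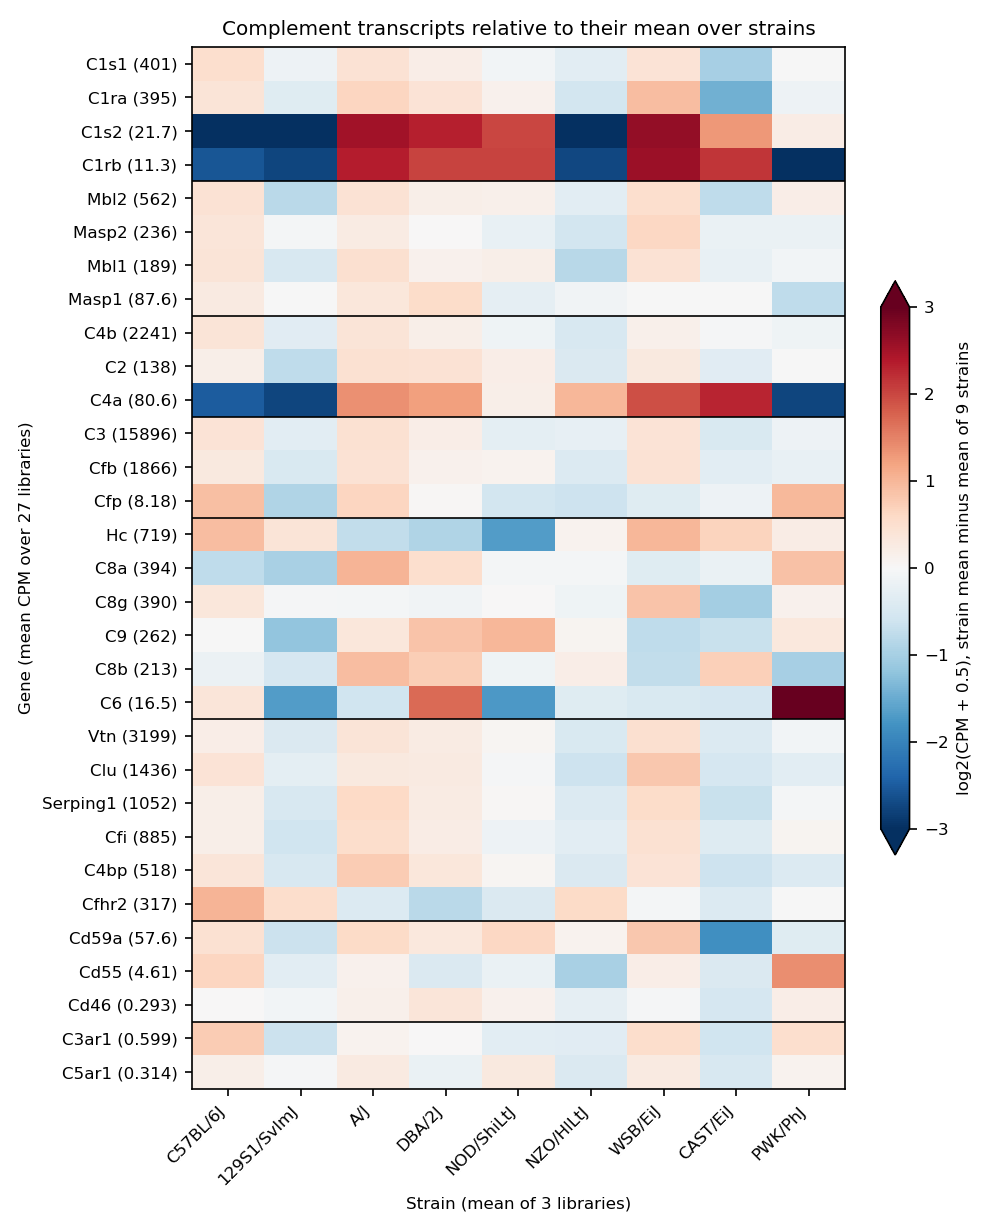
Colour shows, for each of the 31 tested genes (rows, with the mean CPM over 27 libraries) and each strain (columns, mean of 3 libraries), log2(CPM + 0.5) minus the mean of the 9 strains; lines part the groups by role. C1rb, C1s2 and C4a are in steps between strains, Hc is low in A/J, DBA/2J and NOD/ShiLtJ, C6 is high in PWK/PhJ and Cd59a low in CAST/EiJ, while C3, Cfb, Vtn and Serping1 vary by less than 2.5-fold.

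The classical route proteases gave the sharpest contrasts. C1r and C1s are the serine proteases of the C1 complex, and the mouse carries each as neighbouring copies on chromosome 6: C1ra (chr6:124512405-124523443, plus strand), C1s1 (chr6:124530345-124542359, minus), C1rb (chr6:124570294-124581171, plus) and C1s2 (chr6:124624625-124636085, minus), in GRCm38 coordinates. C4a (chr17:34809092-34823464, minus) and C4b (chr17:34728380-34743882, minus) are another such pair, C4b being the copy that encodes complement C4 and C4a the one known as the sex-limited protein gene. In the reference transcripts, C1ra and C1rb were 97.98% identical over 2429 aligned bases, C1s1 and C1s2 95.94% over 2661, and C4b and C4a 96.14% over 5367. The first 90 coding bases of C1s1 and the aligned bases of C1s2 are shown because they are nearly the same and a read from here can hardly tell the copies apart; the capital marks the single base that differs.
C1s1: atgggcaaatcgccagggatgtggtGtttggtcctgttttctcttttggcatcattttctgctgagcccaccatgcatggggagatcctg
C1s2: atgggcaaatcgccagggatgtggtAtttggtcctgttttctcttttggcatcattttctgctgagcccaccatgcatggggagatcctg
The next stretches are the 60 coding bases of each pair in which the copies differ most. Reads of the 2 copies can be told apart at differences along the whole transcripts, of which these are an extreme part. Capitals mark differing bases. They begin at coding base 1798 of C1ra, 1484 of C1s1 and 2705 of C4b, counted from the A of the start codon.
C1ra: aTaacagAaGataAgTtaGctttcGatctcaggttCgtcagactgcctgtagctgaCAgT
C1rb: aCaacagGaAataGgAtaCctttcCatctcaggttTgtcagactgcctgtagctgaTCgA
C1s1: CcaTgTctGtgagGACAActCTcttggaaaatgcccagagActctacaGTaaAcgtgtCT
C1s2: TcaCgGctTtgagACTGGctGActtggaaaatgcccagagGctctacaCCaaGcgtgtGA
C4b: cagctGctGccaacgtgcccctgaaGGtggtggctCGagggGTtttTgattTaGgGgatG
C4a: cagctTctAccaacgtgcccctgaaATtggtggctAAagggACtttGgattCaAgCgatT
The C1r pair differs at 11 of these bases, the C1s pair at 17 and the C4 pair at 13. Of all 100-base stretches of C1rb, 42.66% also occur in C1ra, against 8.78% of those of C1s2 in C1s1 and 16.52% of those of C4a in C4b. The deposited counts were not whole in 24 of 27 libraries for C1ra and C1rb and in all 27 for the C1s and C4 pairs, as when reads that match several genes are divided between them. The split within a pair is therefore less certain than its sum.

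C1rb was nearly absent in 4 strains and present in the other 5. In C57BL/6J it was at 0, 0.452 and 0.252 CPM in the 3 libraries, in 129S1/SvImJ at 0.186, 0.115 and 0.163, in NZO/HlLtJ at 0.153, 0.101 and 0.225, and in PWK/PhJ it had 2, 0 and 0 counts. The zeros are rounded from deposited estimates that were far below 1 count but not exactly 0. These 12 libraries together held 51 counts of C1rb. The 15 libraries of A/J, DBA/2J, NOD/ShiLtJ, WSB/EiJ and CAST/EiJ each held 338 to 714 counts, at 13.7 to 27.7 CPM. The groups of libraries do not come near to overlapping, and the reference strain C57BL/6J is on the low side. Within the high strains the order of levels ran from NOD/ShiLtJ and DBA/2J to WSB/EiJ, and no neighbours in that order differed beyond their spread (adjusted p 0.536 or more, edgeR pairwise contrasts); between C57BL/6J and NOD/ShiLtJ the step was 6.25 ± 0.408 on the log2 scale (SE, adjusted p 2.89e-11).

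C1s2 fell into several levels. The 9 libraries of C57BL/6J, 129S1/SvImJ and NZO/HlLtJ held 2 to 8 counts each, at most 0.203 CPM. PWK/PhJ, at 11.4, 7.77 and 7.53 CPM, lay between these and the remaining 15 libraries, which ran from 18.1 to 53.1 CPM. Among these, CAST/EiJ at 19.6, 20.5 and 18.1 CPM was below the other 4 strains. The step from C57BL/6J to PWK/PhJ was 5.69 ± 0.285 (log2, SE, adjusted p 1.35e-13), that from PWK/PhJ to CAST/EiJ 1.12 ± 0.18 (adjusted p 3.09e-05) and that from CAST/EiJ to NOD/ShiLtJ 0.705 ± 0.175 (adjusted p 0.00338, edgeR throughout). NOD/ShiLtJ, DBA/2J, A/J and WSB/EiJ did not differ between neighbours. PWK/PhJ thus had C1s2 without C1rb, and the other 8 strains had either both or neither.

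The larger copies carried most of each pair and varied less. C1ra, at 133 CPM per kb against 4.65 for C1rb, averaged 683 ± 86.4 CPM in WSB/EiJ and 132 ± 12.9 CPM in CAST/EiJ (SD, n = 3), with the CAST/EiJ libraries at 138, 141 and 117 CPM below all 24 others, which started at 241 CPM. CAST/EiJ was also the lowest strain for C1s1, at 181, 199 and 196 CPM, again below all others. Its C1ra was 0.882 ± 0.207 below that of NZO/HlLtJ, the next strain (log2, SE, adjusted p 0.00215), and its C1s1 0.696 ± 0.193 below (adjusted p 0.0082). Whether reads were aligned to each strain's own genome is not given, and its part in the levels of CAST/EiJ and PWK/PhJ, the strains for which C1ra, C1s1, C8g and Cd59a or C1rb and C4a were lowest, was not tested. When the copies were summed and refitted, the C1r pair was 2.23 higher in WSB/EiJ than in CAST/EiJ on the log2 scale (adjusted p of the strain effect 6.01e-08), and the C1s pair 1.43 higher in A/J than in CAST/EiJ (1.1e-05). C1rb made up 12.5 ± 1.02% of the C1r sum in CAST/EiJ (SD, n = 3) and 3.47 to 4.24% in the 4 other strains that had it. C1s2 made up 7.99 to 9.17% of the C1s sum in the 5 strains with the highest C1s2 and 2.32 ± 0.172% in PWK/PhJ.

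**Figure D2:**
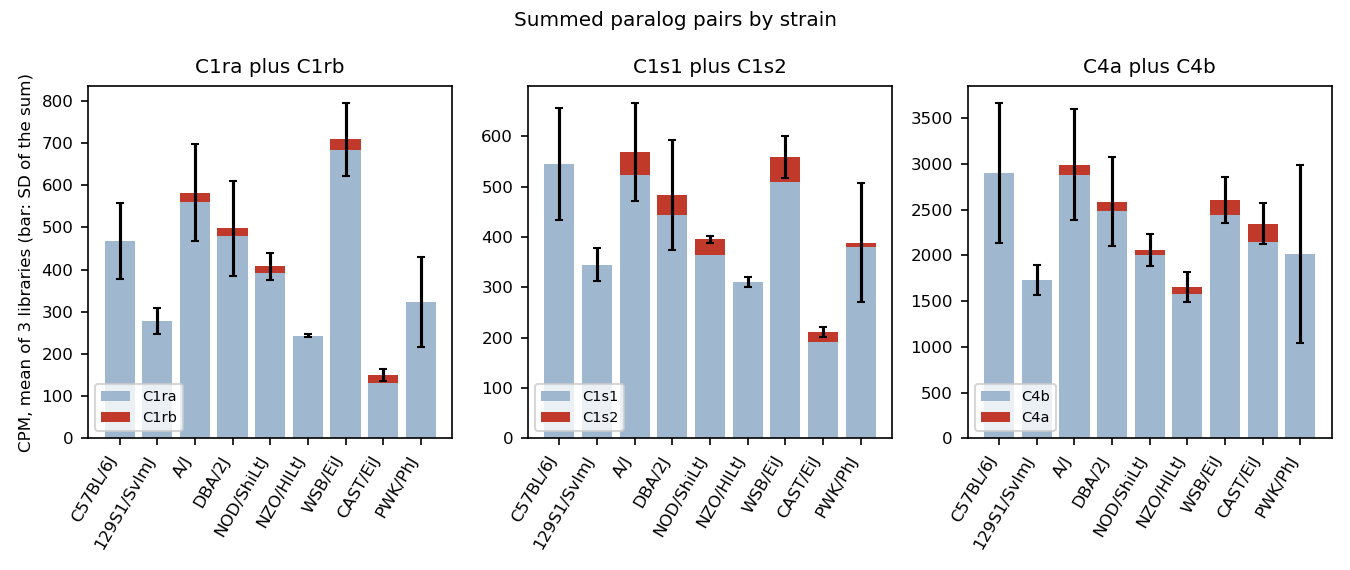
Stacked bars give the mean CPM of the 2 copies of each pair in each strain (3 libraries), and the error bar the SD of their sum. The red copies (C1rb, C1s2, C4a) are a small part of each sum, and the C1r and C1s sums are lowest in CAST/EiJ at 151 and 211 CPM.

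The lectin route genes differed in all 4 cases by about 2.26 to 2.5-fold between the extreme strains. Mbl1, one of the mannose-binding lectins, was lowest in NZO/HlLtJ, at 102, 101 and 104 CPM, below each of the 24 other libraries, which ran from 119 to 302 CPM. Against the mean of the other 8 strains it was 0.94 lower on the log2 scale there (SE 0.139, edgeR adjusted p 1.98e-05), although the step to 129S1/SvImJ, the next strain, did not pass (0.359 ± 0.171, adjusted p 0.219). Mbl2, the second lectin, was lowest in 129S1/SvImJ at 305 ± 59.3 CPM and highest in WSB/EiJ at 758 ± 247 CPM (SD, n = 3). Masp2, the lectin route protease that cuts C4 and C2, ran from 155 ± 8.71 CPM in NZO/HlLtJ to 351 ± 14.5 in WSB/EiJ. Masp1, which activates Masp2, ran from 50.05 ± 14.3 CPM in PWK/PhJ to 125 ± 20.8 in DBA/2J. Masp2 shares bases with Tardbp and Masp1 with Rtp4 on the opposite strand, and whether the counting used strand is not given, so reads of these overlaps cannot be assigned.

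In the step that both routes share, C4a also split the strains into groups that did not overlap, by another pattern and with a smaller step than C1rb and C1s2: 2.77 ± 0.243 between C57BL/6J and NOD/ShiLtJ (log2, SE, edgeR adjusted p 6.79e-09). Its libraries were at 4.58, 6.65 and 9.68 CPM in C57BL/6J, 6.11, 5.61 and 5.71 in 129S1/SvImJ, and 8.27, 4.47 and 4.61 in PWK/PhJ. The other 18 libraries ran from 42.9 to 225 CPM, with no overlap. NOD/ShiLtJ was lowest among these, at 49.8, 49.2 and 42.9 CPM, and CAST/EiJ highest, at 183, 210 and 225 CPM, above all 24 others. NZO/HlLtJ, which lacked C1rb and C1s2, was on the high side for C4a at 84.5 ± 19.2 CPM (SD, n = 3). Against the mean of the other 8 strains C4a was 2.62 ± 0.135 higher in CAST/EiJ (log2, SE, adjusted p 6.07e-14), while the step between WSB/EiJ and CAST/EiJ alone did not pass (0.36 ± 0.221, adjusted p 0.212). M21 annotates C4a as a processed transcript.

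C4b had a mean level of 417 CPM per kb against 15.005 for C4a. Its strain means lay between 1573 ± 150 CPM in NZO/HlLtJ and 2894 ± 763 in C57BL/6J (SD, n = 3). Its strain effect passed with little to spare (adjusted p 0.0269, edgeR) and missed the threshold without C57BL/6J replicate 2 (0.0532), C57BL/6J replicate 4 (0.0551), NZO/HlLtJ replicate 2 (0.0648) or NZO/HlLtJ replicate 3 (0.0505), and without TMM factors (0.177). The C4 sum differed by 0.85 between A/J and NZO/HlLtJ, its extreme strains, on the log2 scale. Its strain effect had an adjusted p of 0.0256 (edgeR F test over all strains). That rose to 0.0509 without 129S1/SvImJ replicate 2, 0.059 without NZO/HlLtJ replicate 2 and 0.125 without TMM factors. In the fit without TMM factors the difference between A/J and NZO/HlLtJ fell to 0.299. C2, the partner of C4 in the C3 convertase, was lowest in 129S1/SvImJ, at 67.9, 83.2 and 83.9 CPM. The other 24 libraries ran from 87.5 to 222 CPM, so these did not overlap. C2 was 0.86 lower there than in the mean of the other 8 strains (log2, SE 0.184, edgeR adjusted p 0.00175). The step to NZO/HlLtJ, the next strain, did not pass (0.325 ± 0.228, adjusted p 0.463). C2 and Cfb lie side by side on chromosome 17 and share bases on the same strand with Gm20547, a readthrough gene model that held 34251 counts in all libraries against 100440 for C2, so the level of C2 depends on how such reads were assigned.

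C3, the protein on which all routes converge, was lowest in CAST/EiJ at 11257 ± 1438 CPM and highest in A/J at 21283 ± 3823 (SD, n = 3), a 1.89-fold range. Its libraries overlapped widely: WSB/EiJ alone spread from 13090 to 25020 CPM. The strain effect had an adjusted p of 0.00418, and 0.0681 without TMM factors. Cfb, the protease subunit of the alternative route convertase, ran from 1326 ± 157 CPM in 129S1/SvImJ to 2467 ± 349 in WSB/EiJ (adjusted p 0.000546). These abundant genes of the central steps thus had small ranges among strains.

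Cfp (properdin), which stabilises the alternative convertase and is known as a product of myeloid cells more than of hepatocytes, was chosen for mention after its values were seen. It lay at 2.14 to 27.8 CPM, was highest in PWK/PhJ replicate 1, whose Kupffer cell marker sum of 347 CPM was also the highest, and lowest in DBA/2J replicate 4, whose sum of 29.5 CPM was the lowest. Cfp was 14.1 ± 2.00 CPM in C57BL/6J and 3.70 ± 1.12 in 129S1/SvImJ (SD, n = 3), the strains with the highest and lowest mean marker sums, at 215 ± 29.9 and 53.8 ± 22.7 CPM. The difference between PWK/PhJ and 129S1/SvImJ was 2.01 ± 0.505 on the log2 scale (SE), 1.21 ± 0.479 without PWK/PhJ replicate 1 and 0.68 ± 0.282 with the Kupffer and endothelial list means as covariates; the strain effect passed in each fit (adjusted p 0.00318, 0.00398 and 0.0011, edgeR). The mean marker sums of CAST/EiJ (55.46 ± 4.45 CPM) and NZO/HlLtJ (58.15 ± 23.9) were close to that of 129S1/SvImJ. Whether Cfp RNA came from macrophages was not tested. In bulk libraries such as these, fewer cells of a type and less RNA per cell cannot be told apart.

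**Figure D3:**
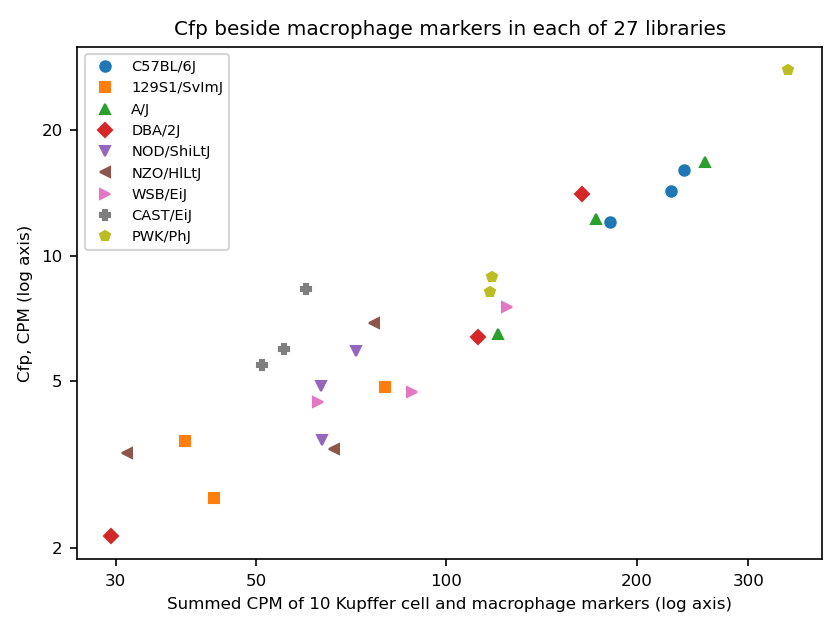
Each point is a library: the x axis gives the summed CPM of 10 Kupffer cell and macrophage markers and the y axis the CPM of Cfp, both on log axes, with the symbol giving the strain. The points run from DBA/2J replicate 4 (29.5 and 2.14 CPM) to PWK/PhJ replicate 1 (347 and 27.8 CPM).

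In the terminal pathway, Hc (chr2:34983331-35061438, minus strand) was low in all 3 strains known for C5 deficiency. NOD/ShiLtJ had 182, 178 and 214 CPM, DBA/2J 355, 341 and 288, and A/J 302, 373 and 431. The 18 libraries of the other strains ran from 524 CPM in PWK/PhJ replicate 3 to 1418 CPM in C57BL/6J replicate 2, so the 9 libraries of the deficient strains lay below all of them. The mean of the deficient strains differed from that of the other 6 by -1.67 on the log2 scale (SE 0.115, edgeR adjusted p 4.93e-11), and by between -1.71 and -1.62 when any 1 library was left out. The transcript was still plainly present, with at least 5135 counts in every library of those strains. The deficient strains were not alike: NOD/ShiLtJ lay 0.776 ± 0.213 below DBA/2J (log2, SE, adjusted p 0.0187), whereas DBA/2J and A/J did not differ beyond their spread (0.168 ± 0.212, adjusted p 0.679). Among the other 6 strains no neighbours in the order from NZO/HlLtJ to WSB/EiJ differed (adjusted p 0.335 or more).

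**Figure D4:**
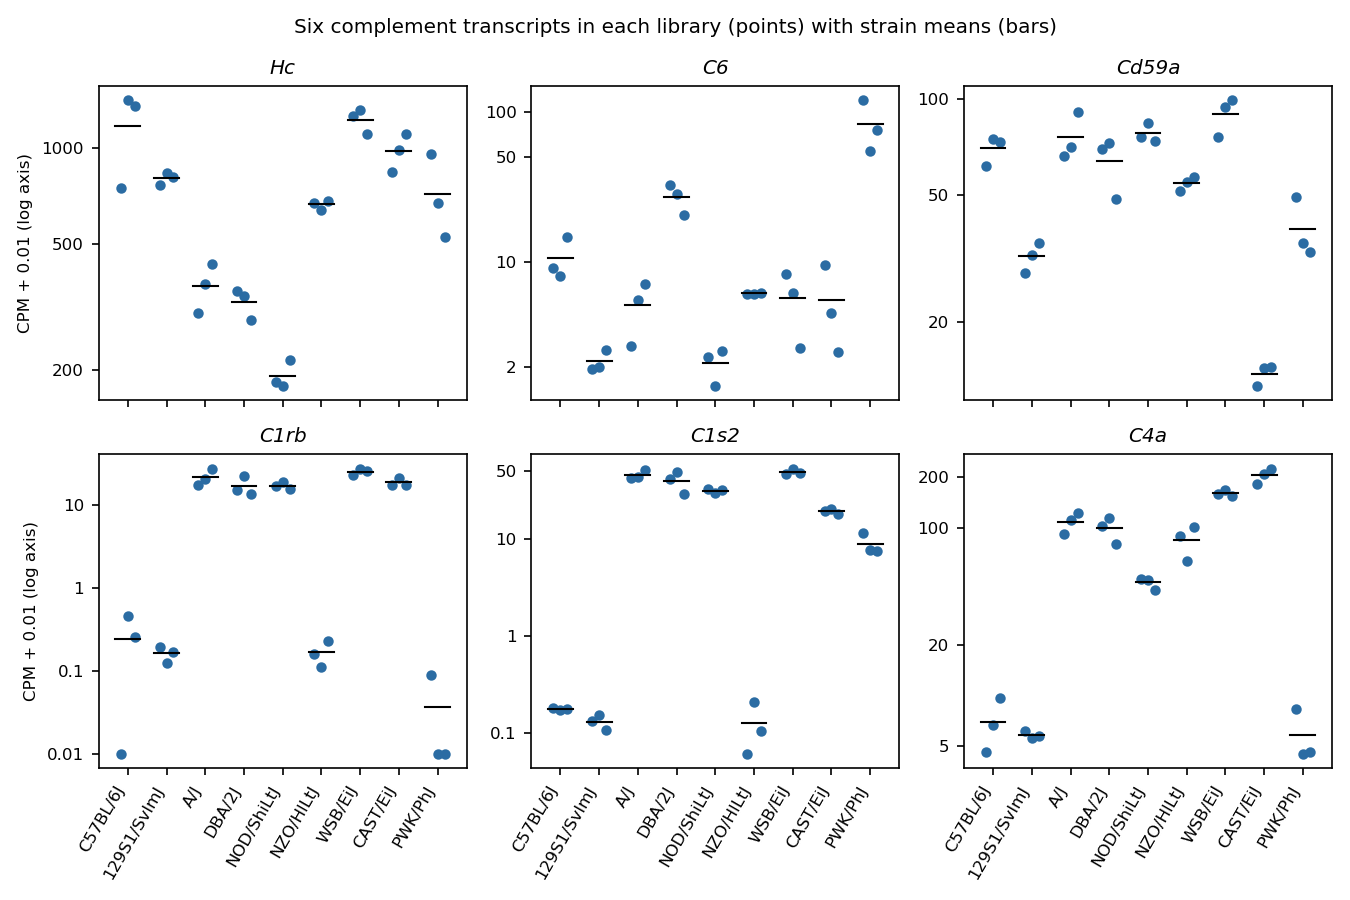
Points are single libraries and bars strain means of CPM, plotted as CPM + 0.01 on log axes that differ between panels. Hc is below 440 CPM in the 9 libraries of A/J, DBA/2J and NOD/ShiLtJ, C6 highest in PWK/PhJ, Cd59a lowest in CAST/EiJ, and C1rb, C1s2 and C4a fall to near 0 or below 10 CPM in whole strains.

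C6 joins the C5b fragment to start the pore. It was at 120, 55.5 and 76.0 CPM in PWK/PhJ and at 32.8, 28.6 and 20.8 CPM in DBA/2J. Every other library was below 15 CPM, and NOD/ShiLtJ was lowest at 2.34, 1.49 and 2.54. PWK/PhJ thus lay above all 24 other libraries, by 3.84 ± 0.219 on the log2 scale against the mean of the other 8 strains (SE, edgeR adjusted p 6.56e-13). The value was 3.48 ± 0.243 without PWK/PhJ replicate 1, the library with the most macrophage and endothelial RNA, and 3.68 ± 0.404 with those list means as covariates. DBA/2J was second and differed from both neighbours in the order, PWK/PhJ (1.62 ± 0.385 above it, adjusted p 0.00273) and C57BL/6J (1.37 ± 0.391 below it, adjusted p 0.0256).

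C8 is a protein of 3 chains from 3 genes, C8a, C8b and C8g, which did not follow one order of strains. C8g, which encodes the gamma chain, was highest in WSB/EiJ, at 665, 719 and 623 CPM, above all 24 other libraries (168 to 551 CPM). It was 0.96 ± 0.154 higher there than in the mean of the other 8 strains (log2, SE, edgeR adjusted p 4.68e-05). The step from C57BL/6J, the next strain, to WSB/EiJ did not pass (0.506 ± 0.224, adjusted p 0.149). C8g was lowest in CAST/EiJ at 184 ± 17.9 CPM (SD, n = 3), below all others. C8a and C8b, chosen for mention after their values were seen, are neighbours on chromosome 4 and were both highest in A/J, at 728 ± 152 and 365 ± 131 CPM. In PWK/PhJ, C8a was second highest at 655 ± 379 CPM while C8b was lowest at 96.9 ± 40.9 CPM; against the other 8 strains C8a was 0.99 ± 0.192 higher there (adjusted p 0.000252) and C8b 1.12 ± 0.261 lower (log2 difference -1.12, adjusted p 0.0016). The C8a difference rests on PWK/PhJ replicate 1, at 1089 CPM against 387 and 488 in the others: it was 0.41 ± 0.181 without that library (adjusted p 0.101) and 0.50 ± 0.288 with the Kupffer and endothelial list means as covariates (adjusted p 0.209). That of C8b was -1.52 and -1.71 in these fits and passed in both (adjusted p 0.000432 and 0.000523). C8g shares 970 bases with Fbxw5 on the opposite strand, which held 19230 counts in all against 287970 for C8g.

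C9, which polymerises to form the wall of the pore and was also chosen after its values were seen, ran from 103 ± 19.9 CPM in 129S1/SvImJ to 472 ± 51.5 in NOD/ShiLtJ (SD, n = 3). Its 3 libraries in NOD/ShiLtJ, at 501, 412 and 502 CPM, overlapped with those of DBA/2J, at 420, 473 and 385, and these were the highest strains. The mean of A/J, DBA/2J and NOD/ShiLtJ was 1.10 ± 0.122 above that of the other 6 strains for C9 (log2, SE, edgeR adjusted p 2.09e-07), with overlapping libraries. Against the other 8 strains C9 was higher in DBA/2J (0.97, adjusted p 0.000262) and NOD/ShiLtJ (1.13, adjusted p 3.11e-05), while A/J, at 297 CPM, did not pass (0.38, adjusted p 0.123). In that contrast 19 of the 31 complement genes tested were higher, where 13.7% of all genes tested were, and 2 were lower, Hc and Cfhr2, where 9.36% of all genes were. The median log2 difference was 0.345 over the complement genes and 0.00545 over all genes. Set singly against the other 8 strains, A/J had 17 complement genes higher (15.9% of all genes), DBA/2J 10 (9.5%) and NOD/ShiLtJ 4 (9.2%), with medians of 0.51, 0.285 and 0.0209; the difference between these strains in their counts was not tested. Without A/J replicate 3 the count in A/J was 8, and without DBA/2J replicate 2 or 3 that in DBA/2J was 6 or 5. The largest values were those of C1rb (4.84 ± 0.177) and C1s2 (4.52 ± 0.105), which 4 and 3 of the other strains nearly lacked, so these fitted values rest on a few counts and are no bounds. Without TMM factors 15 genes were higher and 2 lower. With the Kupffer and endothelial means as covariates 20 were higher and 4 lower.

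All 6 soluble regulators differed among strains, by 1.93-fold for Vtn to 3.56-fold for Cfhr2 between the extreme means. Cfi (factor I), the protease that inactivates C3b and C4b, ran from 568 ± 71.3 CPM in 129S1/SvImJ to 1232 ± 194 in A/J, and C4bp, its cofactor for C4b, between 321 ± 1.04 in CAST/EiJ and 836 ± 163 in A/J (SD, n = 3). Serping1, the inhibitor of C1r, C1s and the MASPs, was highest in A/J at 1522 ± 260 CPM and lowest in CAST/EiJ at 638 ± 46.5. Clu and Vtn were highest in WSB/EiJ, at 2378 ± 392.5 and 4369 ± 89.98 CPM, and lowest in NZO/HlLtJ, at 889 ± 34.8 and 2267 ± 105. The highest mean of each of these 5 genes was thus in A/J or WSB/EiJ, and the lowest in 129S1/SvImJ, NZO/HlLtJ or CAST/EiJ.

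Cfhr2, the remaining soluble regulator, had its highest mean in C57BL/6J and its lowest in DBA/2J; it was chosen for mention after its values were seen. C57BL/6J was at 439, 653 and 704 CPM, 129S1/SvImJ at 375, 429 and 455, and NZO/HlLtJ at 411, 421 and 475. The other 18 libraries ran from 120 CPM in DBA/2J to 318 CPM in PWK/PhJ, below all 9 of these. The step between PWK/PhJ and 129S1/SvImJ was 0.531 ± 0.178 (log2, SE, edgeR adjusted p 0.0258). The high strains for Cfhr2 were the same 3 that lay lowest for C1s2, though the genes are on chromosomes 1 and 6. Counts of Cfhr2 were not whole in all 27 libraries.

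Of the membrane regulators, Cd59a, which blocks C9 on host cells, was lowest in CAST/EiJ, at 12.7, 14.4 and 14.4 CPM. The other 24 libraries ran from 28.7 CPM in 129S1/SvImJ to 99.3 CPM in WSB/EiJ, with no overlap. It was 2.12 ± 0.15 lower in CAST/EiJ than in the mean of the other 8 strains (log2 difference -2.12, SE, edgeR adjusted p 3.02e-11), and 1.22 ± 0.17 below 129S1/SvImJ, the next strain (adjusted p 5.62e-06). Cd55, which speeds the decay of convertases, was low in all strains, with a mean of 11.4 ± 8.16 CPM in PWK/PhJ against 1.83 ± 0.593 in NZO/HlLtJ (SD, n = 3); in the former replicate 1 had 20.8 CPM, the highest of all. The difference of 2.63 ± 0.503 between these strains was 1.88 ± 0.473 without that library and 0.10 ± 0.301 with the Kupffer and endothelial means as covariates (log2, SE). The strain effect of Cd55 passed in each of these fits (adjusted p 0.00103, 0.0101 and 0.0107, edgeR). Cd46 was at most 23 counts in any library and overlaps A330023F24Rik on the other strand, which held 2044 counts against its 214. Its strain effect (adjusted p 0.0474, edgeR) was lost in 4 of the 7 other fits to all libraries. In the fit that asked for a mean of at least 10 counts, also among the 7, Cd46 was not tested. The effect held in only 8 of the 27 fits that left out 1 library (adjusted p 0.0318 to 0.152), so the level of Cd46 is close to the floor of these data.

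The receptors were at a similarly low level. C3ar1, the C3a receptor, is known from myeloid cells. It had its highest strain mean in C57BL/6J, at 1.27 ± 0.00575 CPM, and its lowest in 129S1/SvImJ, at 0.164 ± 0.089 (SD, n = 3). The highest single library, at 2.45 CPM, was WSB/EiJ replicate 2. C57BL/6J and 129S1/SvImJ had the highest and lowest mean Kupffer cell marker sums, though CAST/EiJ and NZO/HlLtJ were close to the latter. The C3ar1 difference of 2.92 ± 0.816 between C57BL/6J and 129S1/SvImJ fell to 1.04 ± 0.988 with the marker means as covariates, where the strain effect no longer passed (log2, SE, adjusted p 0.0129 and 0.0767, edgeR). C5ar1 had at most 18 counts per library and was 2.52 ± 0.915 higher in NOD/ShiLtJ than in CAST/EiJ (log2, SE), but its strain effect did not pass in edgeR. It passed without 129S1/SvImJ replicate 3 (adjusted p 0.0456) or CAST/EiJ replicate 1 (0.0452), so at this depth the call rests on single libraries.

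Each strain was also set against the mean of the other 8, to see where it was high or low over the whole system. A/J and WSB/EiJ were on the high side, and 129S1/SvImJ, NZO/HlLtJ and CAST/EiJ on the low side. In A/J 17 of 31 complement genes were higher and 2 lower, where 15.9% and 11.6% of all genes were. In WSB/EiJ the numbers were also 17 and 2, with 15.5% and 9.25% of all genes. In 129S1/SvImJ 2 were higher and 15 lower (10.5% and 7.86% of all genes), in NZO/HlLtJ 2 and 12 (14.8% and 12.9%), and in CAST/EiJ 5 and 14 (20.1% and 17.8%). C57BL/6J had 12 higher and 4 lower (11.6% and 6.5%), DBA/2J 10 and 2 (9.5% and 3.78%), NOD/ShiLtJ 4 and 3 (9.2% and 5.72%) and PWK/PhJ 5 and 6 (19.4% and 14.8%). The median log2 difference of the complement genes was 0.51 in A/J, 0.497 in WSB/EiJ, 0.419 in C57BL/6J and 0.285 in DBA/2J, against -0.531 in 129S1/SvImJ, -0.469 in NZO/HlLtJ and -0.457 in CAST/EiJ, while that of all genes lay within 0.03 of 0 in each strain. These 9 contrasts share libraries and are not independent. The summed level of the 10 hepatocyte markers was also highest in A/J (306900 ± 47700 CPM) and WSB/EiJ (251600 ± 9880) and lowest in 129S1/SvImJ (145000 ± 15300), NZO/HlLtJ (133100 ± 3790) and CAST/EiJ (128800 ± 5110; SD, n = 3), and its part in the counts was not tested. Alb alone averaged 229400 CPM in A/J, so that sum mostly follows Alb. Ttr, Apoa1, Trf and Fgb were also highest in A/J, but Cps1, Hnf4a, Ass1 and Tat were lowest there. With the Kupffer and endothelial list means as covariates, higher calls went from 12 to 2 in C57BL/6J, from 17 to 9 in A/J, from 10 to 17 in DBA/2J and from 5 to 2 in PWK/PhJ. In that fit PWK/PhJ had 17 genes lower in place of 6, CAST/EiJ 9 in place of 14, and NZO/HlLtJ 4 in place of 12.

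The balance of higher and lower calls moved with the scaling in A/J, WSB/EiJ and NZO/HlLtJ. Without TMM factors A/J had 11 complement genes higher and 4 lower, WSB/EiJ 9 and 6, and NZO/HlLtJ 6 and 7. Under that scaling the median log2 difference of all genes was -0.296 in A/J, -0.348 in WSB/EiJ, 0.307 in NZO/HlLtJ and 0.233 in 129S1/SvImJ. It was 0.213 in CAST/EiJ, -0.143 in C57BL/6J, 0.119 in NOD/ShiLtJ and -0.111 in the Hc contrast. Single libraries mattered too. C57BL/6J had 4 genes higher without its replicate 2 and 3 without its replicate 4; A/J 8 higher without replicate 3, and 1 lower without replicate 1 or 2; DBA/2J 6 or 5 higher without replicate 2 or 3. NZO/HlLtJ had 6, 7 and 6 lower without replicates 1, 2 and 3. WSB/EiJ had 11 higher without replicate 3 and 1 lower without replicate 3 or 4. PWK/PhJ had 3 higher and 11 lower without replicate 1. In 129S1/SvImJ the second gene called higher was Hc, with an adjusted p of 0.0492, and 2 genes stayed called in 8 of the 27 fits that left out 1 library.

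**Figure D5:**
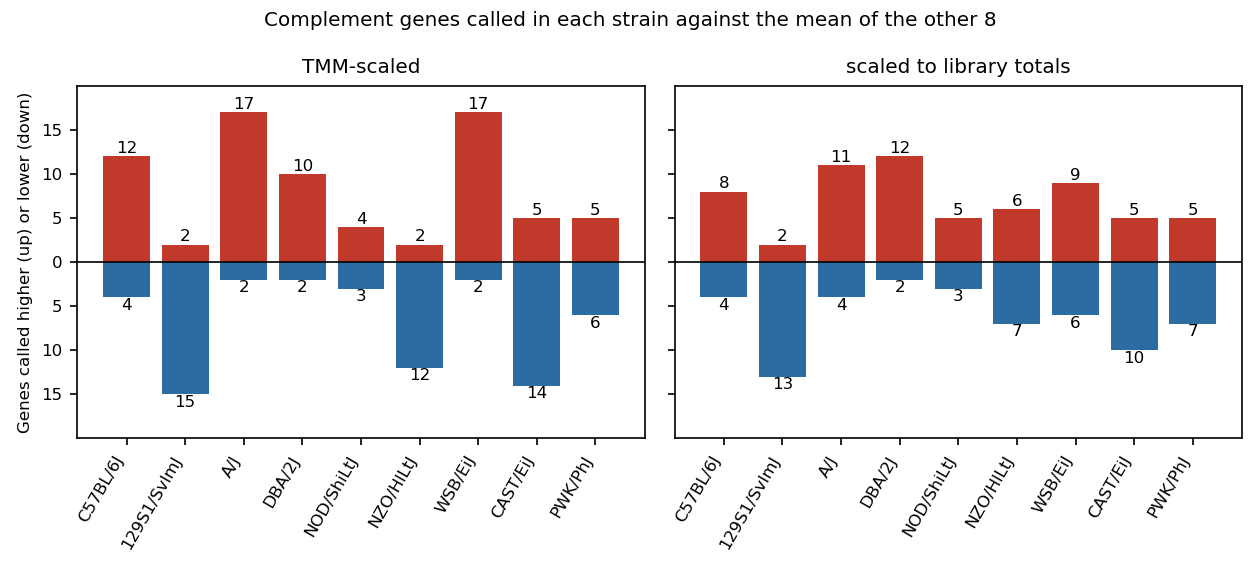
Bars give the number of the 31 tested complement genes called higher (up, red) or lower (down, blue) in each strain than in the mean of the other 8, with TMM scaling (left) and with library totals (right). A/J and WSB/EiJ have 17 higher and 2 lower on the left, and 11 and 4 and 9 and 6 on the right.

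Other genes of the complement pathway were examined as a list of 27, of which 26 were in the table and 22 could be tested; all 22 differed among strains. The C1q chains C1qa, C1qb and C1qc, the recognition part of C1 and macrophage products, were highest in PWK/PhJ at 19.9 to 22.5 CPM and lowest in 129S1/SvImJ at 3.85 to 4.41 CPM. The Kupffer cell marker sum averaged 194 ± 132 and 53.8 ± 22.7 CPM in these strains (SD, n = 3), and its part in the difference was not tested. In PWK/PhJ that sum was 347 CPM in replicate 1 against 118 and 117 CPM in replicates 2 and 3. Apcs (serum amyloid P), a pentraxin that binds C1q, was at 743 CPM in A/J and 59 in CAST/EiJ (adjusted p 2.3e-09), and Susd4, a membrane protein with complement control domains, ran from 0.0766 CPM in NZO/HlLtJ to 30.1 in CAST/EiJ. Against the other 8 strains, 9 of the 22 were higher and 1 lower in A/J, 14 and 1 in C57BL/6J, 14 and 4 in PWK/PhJ, 2 and 11 in CAST/EiJ, 1 and 6 in NZO/HlLtJ and 0 and 4 in 129S1/SvImJ. DBA/2J had 5 and 0, NOD/ShiLtJ 2 and 2 and WSB/EiJ 3 and 2. Over all genes tested the shares higher and lower were 15.9% and 11.6% in A/J, 11.6% and 6.5% in C57BL/6J, 19.4% and 14.8% in PWK/PhJ and 20.1% and 17.8% in CAST/EiJ. They were 14.8% and 12.9% in NZO/HlLtJ, 10.5% and 7.86% in 129S1/SvImJ and 9.5% and 3.78% in DBA/2J. The counts in NOD/ShiLtJ (9.2% and 5.72% of all genes) and WSB/EiJ (15.5% and 9.25%) are near those shares. All 14 acute phase genes and all 15 interferon response genes listed also differed among strains, where 74.2% of all genes and 92.4% of those at 100 CPM or more did. The acute phase genes summed to 42920 ± 7260 CPM in A/J, 37780 ± 1360 in WSB/EiJ, 35410 ± 11200 in PWK/PhJ, 35380 ± 7380 in C57BL/6J and 30420 ± 3740 in DBA/2J (SD, n = 3). The sums were 29930 ± 6780 CPM in CAST/EiJ, 28670 ± 626 in NOD/ShiLtJ, 22050 ± 905 in NZO/HlLtJ and 20210 ± 2800 in 129S1/SvImJ. By mean sum A/J and WSB/EiJ were thus highest and NZO/HlLtJ and 129S1/SvImJ lowest, as for the complement genes with TMM scaling, while CAST/EiJ was not among the lowest. Libraries of PWK/PhJ and C57BL/6J overlapped with those of A/J and WSB/EiJ, and the likeness of the orders was not tested.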

How the data were processed

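RNA-seq of hepatocytes from 9 strains (27 libraries) was made from poly(A) RNA with TruSeq RNA v2 kits, per the labels' protocols. The authors deposited 1 table of estimated counts per Ensembl gene, in which 11.1% of values were not whole (tolerance 1e-06). FastQC 0.11.5, DESeq2 and the builds GRCm38 and mm10 are named in the submitters' processing notes; the aligner, the counter, strand use and whether strain genomes were used are not given in the sources used here. Symbols, positions and transcripts came from GENCODE M21, which named 42462 of 43346 genes.

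Counts were rounded (totals changed by at most 0.00026%), filtered with filterByExpr, TMM-scaled (factors 0.722 to 1.226) and fitted with edgeR 4.0.16 (R 4.3.3) with strain as the only factor. Quasi-likelihood tests covered all strains together, 3 C5-deficient strains against 6, each strain against the other 8, and 36 pairs of strains, each with Benjamini-Hochberg adjustment over 14482 genes and a threshold of 0.05. The fit was tested on simulated data for the contrast of CAST/EiJ with the other 8 strains: over 14083 genes, it called 17 of 48 genes changed 1.5-fold, 35 of 49 changed 2-fold, 46 of 50 changed 4-fold, 46 of 50 changed 8-fold, and 9 of 13886 unchanged genes. Libraries of a strain differed by far more than counting noise (chi-square per degree of freedom 24.4 to 135). One count was worth 0.0253 to 0.0516 CPM, and tests measure the spread between labelled biological replicates.

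The genes and lists were chosen with earlier results of these data known. Values by library are given for Hc, the paralog pairs, the 6 genes with the largest F among those averaging at least 10 CPM, and for each strain the called gene with the largest change in each direction among those with at least 10 CPM whose libraries did not overlap any others; genes outside this rule are given by range or named as chosen after their values were seen. Alternatives were DESeq2 1.42.0, median-of-ratios scaling, no filter, a mean of at least 10 counts, a replicate block, Kupffer and endothelial list means as covariates, leaving out each library, and, chosen after seeing the data, library totals without TMM factors.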

Additional observations from a re-analysis of the deposited data

How the results depend on the processing

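Of 474 values recomputed for 68 results under 7 alternatives, 442 kept their direction and side of the threshold (or a count within 1.5 times), and none changed sign; 26 of 31 complement genes passed in every fit, those that left out a library included. Replicate numbers did not pair the samples: same-numbered libraries of different strains deviated from their strain means with correlations of -0.293 to 0.275 (median 0.0232, 76 pairs, 17 over 0.1), and 7 of 26 libraries correlated best with their own number. With a replicate block, 28 of 31 genes differed among strains, 7 were lower in CAST/EiJ and 1 was higher in 129S1/SvImJ. The C4 sum then differed by 0.858 between A/J and NZO/HlLtJ (adjusted p of its strain effect 0.0747, edgeR). Genes higher in 129S1/SvImJ also numbered 1 with DESeq2, median-of-ratios factors, no filter and a mean of at least 10 counts. With the Kupffer and endothelial list means as covariates, higher calls were 2 in C57BL/6J, 9 in A/J, 17 in DBA/2J and 2 in PWK/PhJ, lower calls 4 in NZO/HlLtJ, 9 in CAST/EiJ and 17 in PWK/PhJ, and 4 in the C5-deficient strains. Without TMM factors, higher and lower calls were 11 and 4 in A/J, 6 and 7 in NZO/HlLtJ and 9 and 6 in WSB/EiJ, and the C4 sum differed by 0.299 (adjusted p of its strain effect 0.125, edgeR). The cause was not tested. Leaving out 1 library at a time gave 3 to 17 higher in C57BL/6J, 1 to 2 in 129S1/SvImJ, 8 to 22 in A/J, 5 to 12 in DBA/2J, 11 to 19 in WSB/EiJ and 3 to 6 in PWK/PhJ. Lower calls were 1 to 2 in A/J, 6 to 14 in NZO/HlLtJ, 1 to 2 in WSB/EiJ and 4 to 11 in PWK/PhJ, and the C4 sum differed by 0.708 to 1.00. Depth limits Cd46, C3ar1 and C5ar1, whose counts reached at most 23, 58 and 18 per library.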
